A study of Schizosaccharomyces pombe with 4 samples.

Results

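The genes of the cytosolic ribosomal proteins were examined in small RNA libraries of fission yeast, Schizosaccharomyces pombe, grown exponentially in rich medium. They were taken as all protein-coding genes of the RefSeq assembly ASM294v3 with a symbol of rpl or rps followed by a digit, on chromosomes I to III, which leaves out the mitochondrial ribosomal proteins. The rule gave 131 of 5113 annotated protein-coding genes, 76 for the large and 55 for the small ribosomal subunit. A strain labelled ABP1d was compared with wild type (WT), at 2 libraries each with no further treatment, and the study's title concerns the CENP-B homolog ABP1 as a repressor of Tf2 retrotransposon and rRNA gene transcription. The labels give no allele or strain background, and no window of the comparison overlapped cbp1, the gene that the annotation names for this homolog (chromosome II, 3510427 to 3512370), so the genotype could not be checked in these data.

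A ribosomal protein (RP) is a small basic protein that binds rRNA, and each ribosome carries a single copy of most of them. Cells make the RPs of both subunits in matched amounts, and RP mRNAs are among the most abundant of a growing yeast cell. In fission yeast many RPs are encoded by more than a single gene copy, and the copies (paralogs, told apart by the last digits of the symbol, as in rps1601 and rps1602) give proteins that are nearly or fully identical. Small RNAs from mRNA genes can be products of RNA breakdown or of short transcription as well as of RNA interference, and reads of a window cannot be assigned to any of these here.

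The values were deposited for windows, stretches of the genome with an RPKM value (reads per kilobase and per 1000000 reads of the strain total) for each strain, pooled over its libraries. RPKM times length gave whole reads, and the totals behind them were 23817270 for ABP1d and 14466014 for WT. The deposited table lists only windows with a p-value up to 0.0494, so a gene without a window has no value rather than an unchanged one. A ratio is ABP1d over WT in reads per 1000000 of the strain total (RPM), with an exact 95% binomial interval on the reads that covers counting error only. With pooled values no ratio could be set against the spread between libraries. The windows carry no strand, so sense and antisense reads were not separated.

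Sequences of the windows with most reads are shown first, with the place of each window in its gene. A place in an RP gene does not assign the reads to it, since other annotated genes overlap some of these windows. All are given 5' to 3' on the strand of the RP gene, from RefSeq ASM294v3. The windows of rpl701 (chrII:1791795-1791822, minus strand) and rpl4101 (chrI:5402114-5402155, minus strand) lay in introns, and the rpl701 window overlapped the snoRNA gene snoR39b. Those of rpl8 (chrII:2045604-2045646, plus strand) and rpl1901 (chrII:4123447-4123500, minus strand) lay in coding exons. For rpl3602 the window began before the start codon, and its coding part alone is shown (chrII:3153502-3153517, plus strand), with the start codon in capitals.
rpl701: aacaagatgatgacaacaaatttcggat
rpl4101: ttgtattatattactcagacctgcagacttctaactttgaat
rpl8: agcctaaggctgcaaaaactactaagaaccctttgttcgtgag
rpl1901: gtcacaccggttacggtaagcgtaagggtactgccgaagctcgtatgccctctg
rpl3602: ATGgcacctggactgg

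The next set shows windows at matching places in paralogs, with capitals at the bases that differ and positions counted from 1 at the 5' end shown. The rps1601 window (chrII:1794274-1794308, plus strand) and the same stretch of rps1602 (chrI:1710706-1710740, minus strand) differed by G15A, with the base of rps1601 first. The rpl2401 window (chrI:3261742-3261789, minus strand) differed from rpl2402 (chrIII:138367-138414, minus strand) at 6 of 48 bases. The window at the start of rpl1901 (chrII:4123699-4123720, minus strand) begins with its start codon and differed from rpl1902 (chrIII:400767-400788, plus strand) at 3 of 22 bases.
rps1601: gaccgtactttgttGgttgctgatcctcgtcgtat
rps1602: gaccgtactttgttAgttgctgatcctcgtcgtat
rpl2401: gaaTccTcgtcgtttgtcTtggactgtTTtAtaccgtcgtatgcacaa
rpl2402: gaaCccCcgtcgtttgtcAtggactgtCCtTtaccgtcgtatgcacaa
rpl1901: atggcCaatctTagaacGcaga
rpl1902: atggcAaatctGagaacAcaga

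RP genes were often in the list of windows that differed between ABP1d and WT. A window overlapped 61 of the 131 RP genes (46.6%), against 13.4% of the 4969 other protein-coding genes outside Tf2 elements. The 83 RP windows came to 0.854 per kilobase of gene, against 0.0788 per kilobase in the other genes. A single window was listed for 42 of the 61 genes, 2 windows for 17, 3 for rps2602 and 4 for rpl2402. No RP window held a run of 15 or more A or T bases, so that filter removed none. The separate region list of each strain held no RP gene, among 309 regions of ABP1d and 190 of WT.

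These windows were small and thinly covered. Their length ran from 1 to 54 bases with a median of 18, the same median as over other coding genes, and 13 were shorter than 10 bases. Reads of both strains together ran from 10 to 389 per window with a median of 24. Summed over all RP windows, ABP1d had 3408 reads (143 RPM) and WT 1185 reads (81.9 RPM), a ratio of 1.75 (1.63 to 1.87). This sum reversed under 4 of 5 other scalings, for example to 0.734 when windows on 5S rRNA genes were set to no change.

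Most RP windows were higher in ABP1d, but a smaller share than elsewhere. Of the 83 windows, 68 were higher in ABP1d and 15 lower (81.9% higher), against 92.7% higher among the 806 windows on other coding genes. The share of RP windows that were higher was 77.1% with 5S windows centred (90.6% of the other windows), 68.7% with tRNA windows centred (83.5%), 67.5% with snRNA windows centred (80.1%) and 62.7% with the other coding windows centred (75.9%). The median window log2 ratio was 2.09 in both sets of genes. WT was listed at 0 reads in 14 of the 83 RP windows and ABP1d in none. Among the 806 windows on other coding genes WT was at 0 in 253 and ABP1d in 5, so windows without WT reads were less common on RP genes.

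By gene, summed reads were higher in ABP1d for 47 of the 61 genes (77.0%), against 93.4% of the other coding genes with a window. The counting interval lay above 1 for 43 genes (70.5%, against 85.8%) and below 1 for 9 genes (14.8%, against 6.33%). At least 2-fold higher were 44 of the 61 RP genes, against 615 of 664 other genes (92.6%). At least 2-fold lower were 6 of the 61, against 40 of 664 (6.02%). The median gene log2 ratio was 2.09 for RP genes and 2.40 for the other genes. Genes are not replicates and the list was chosen with results known, so these shares are descriptions and the difference between the gene sets was not tested.

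**Figure D1:**
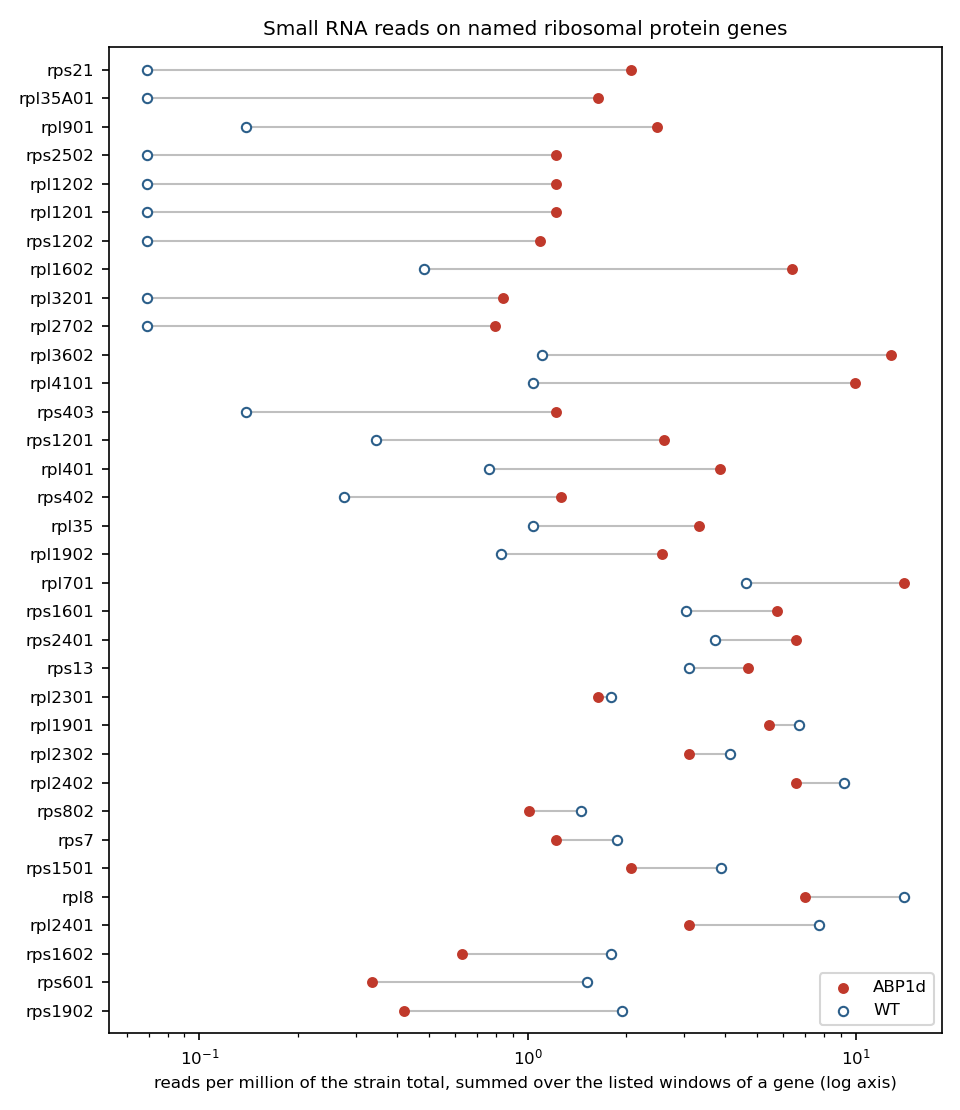
Reads per 1000000 of the strain total (RPM, log axis), summed over the listed windows of each of 34 named RP genes, for ABP1d (filled red) and WT (open blue), with 1 pooled value per strain. Genes are ordered by ratio, from rps21 at 29.8 to rps1902 at 0.217, and the 12 genes at the foot of the plot have more RPM in WT.

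Large and small subunit genes had similar ratios over all windows, but their order changed with the windows kept. A window was listed for 34 of 76 large subunit genes (44.7%) and 27 of 55 small subunit genes (49.1%). Large subunit windows were higher in ABP1d in 38 of 46 cases (82.6%) and small subunit windows in 30 of 37 (81.1%). Summed reads were 2374 in ABP1d against 813 in WT for the large subunit, a ratio of 1.77 (1.64 to 1.92) that fell to 0.745 with 5S windows centred and to 0.417 with other coding windows centred. The small subunit had 1034 reads in ABP1d against 372 in WT, for a ratio of 1.69 (1.50 to 1.91) that fell to 0.709 and 0.397 under those scalings. The large subunit ratio was 1.05 times the small subunit ratio, with a counting interval of 0.908 to 1.21 that does not depend on the scaling. In windows with at least 20 reads the ratio was 1.69 (1.56 to 1.84) for the large and 1.34 (1.18 to 1.53) for the small subunit. In windows with no other annotated gene the order was the other way, at 1.21 (1.07 to 1.37) for large and 1.40 (1.21 to 1.62) for small. Median gene log2 ratios were 2.03 for large and 2.19 for small subunit genes. Among genes with at least 20 reads, ratios ran from 0.401 to 23.7 in 25 large subunit genes and from 0.217 to 29.8 in 20 small subunit genes.

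The directions went with the position of the window in the gene. All 20 windows that held the start codon of an RP gene were higher in ABP1d (20 with 5S windows centred and 17, 16 and 14 with tRNA, snRNA and other coding windows centred), while the 63 without it were higher in 48 cases and lower in 15. The median log2 ratio was 2.67 in start codon windows and 1.78 in the rest. Summed, the start codon windows held 1111 reads in ABP1d against 83 in WT, for a ratio of 8.13 (6.50 to 10.3). The remaining windows held 2297 reads in ABP1d against 1102 in WT, a ratio of 1.27 (1.18 to 1.36).

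Start codon windows were also high in the other coding genes, where 36 of 37 were higher in ABP1d and the median log2 ratio was 2.60. They made up 24.1% of the windows on RP genes and 4.59% of those on other genes. Annotated 5' UTRs had a median of 19 bases in RP genes and 83 bases in the other genes. Windows within 50 bases of the annotated gene start, a count that does not rest on the start codon, were 34 of 83 on RP genes (41.0%) and 23.9% on other genes, while such positions make up 6.74% of the bases of RP genes and 2.43% of those of the other genes. Of those 34 windows, 33 were higher in ABP1d (97.1%), close to the share in other genes, where 187 of 193 were (96.9%). Another annotated gene overlapped 12 of the 20 start codon windows, and the 8 without any other gene were all higher as well, with a summed ratio of 9.26.

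The best covered of these windows was that of rpl3602, which encodes eL36 of the large subunit. It had 304 reads in ABP1d against 16 in WT, for a ratio of 11.5 (6.99 to 20.4), and the deposited p-value was 0. At rpl1602, a gene for the large subunit protein uL13, the window covered the annotated gene start and the first codons (chromosome I, 4097326 to 4097362). It had 152 reads in ABP1d against 7 in WT, for a ratio of 13.2 (6.25 to 33.4). Both windows overlapped an annotated long noncoding RNA (lncRNA) on the opposite strand.

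The gene for uL4, whose extension lines the exit tunnel of the ribosome, was also high at its start codon in the copy rpl401. Its start codon window (chromosome II, 2143121 to 2143141), with no other annotated gene, had 90 reads in ABP1d against 3 in WT, for a ratio of 18.2 (6.04 to 90.0). The rpl901 window, in a gene for uL6, had 59 reads in ABP1d against 2 in WT, a ratio of 17.9 (4.75 to 151). Among small subunit genes, rps1201 for eS12 had 62 reads in ABP1d against 5 in WT, a ratio of 7.53 (3.06 to 24.0). The highest ratio of the named genes was at rps21, a gene for eS21 whose window also overlapped an opposite lncRNA, with 49 reads in ABP1d against a single read in WT, 29.8 (5.10 to 1199). With a single WT read the size of that ratio is poorly determined.

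**Figure D2:**
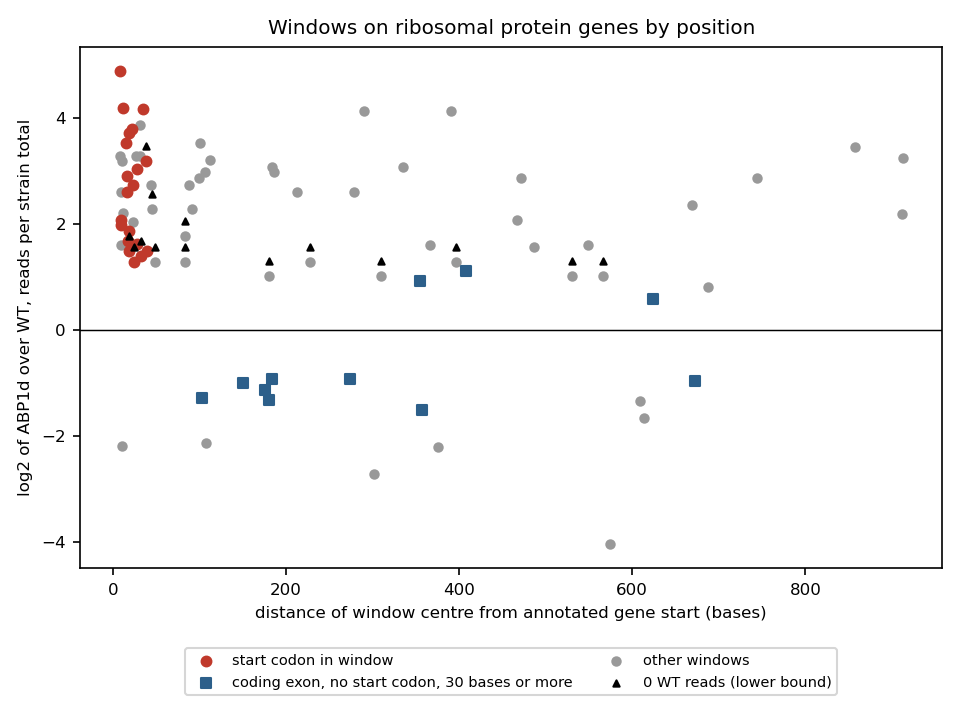
Log2 of ABP1d over WT for each of the 83 windows against the distance of the window centre from the annotated gene start, in bases. All 20 start codon windows (red) lie above 0 at this scaling (14 with other coding windows centred), and 8 of the 11 coding exon windows of 30 bases or more without a start codon (blue squares) lie below 0; a triangle above a point marks 0 WT reads, where the value is a lower bound against 3 reads.

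The 15 windows that were lower in ABP1d were mostly inside the coding sequence, as were most higher windows. Of the 15, 9 had 30 bases or more and none held a start codon. Mostly in coding exons lay 12 of the 15, against 40 of the 68 higher windows. The median length was 35 bases in the lower and 18 in the higher windows. Of the 11 RP windows of 30 bases or more in coding exons without the start codon, 8 were lower, and 11 of 11 with 5S, tRNA, snRNA or other coding windows centred. At the scaling to strain totals the corresponding windows of other coding genes were lower in 5 of 36 cases. Their count with other windows centred was not taken, so it cannot be set beside the 11 of 11. These 36 windows came from only 14 genes, while the 11 RP windows came from 10, so windows of a gene are not independent cases. The median log2 ratio of these long coding windows was -0.95 in RP genes and 1.40 in the other genes. Centring on tRNA, snRNA or other coding windows took off 1.84, 1.96 and 2.09, which puts both medians below 0. Without any other annotated gene in the window, 5 of 6 were lower in RP genes (from 6 genes) at strain totals. In the other genes 5 of 16 were (from 9 genes).

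These windows were few but held most of the WT reads. The 11 windows had 820 reads in ABP1d and 785 in WT, which was 24.1% of the ABP1d reads on RP windows and 66.2% of the WT reads. Coding exon windows under 30 bases without the start codon were higher in 22 of 26 cases (84.6%), against 321 of 345 in other coding genes (93.0%). The limit of 30 bases was chosen after the lengths and ratios were seen.

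**Figure D3:**
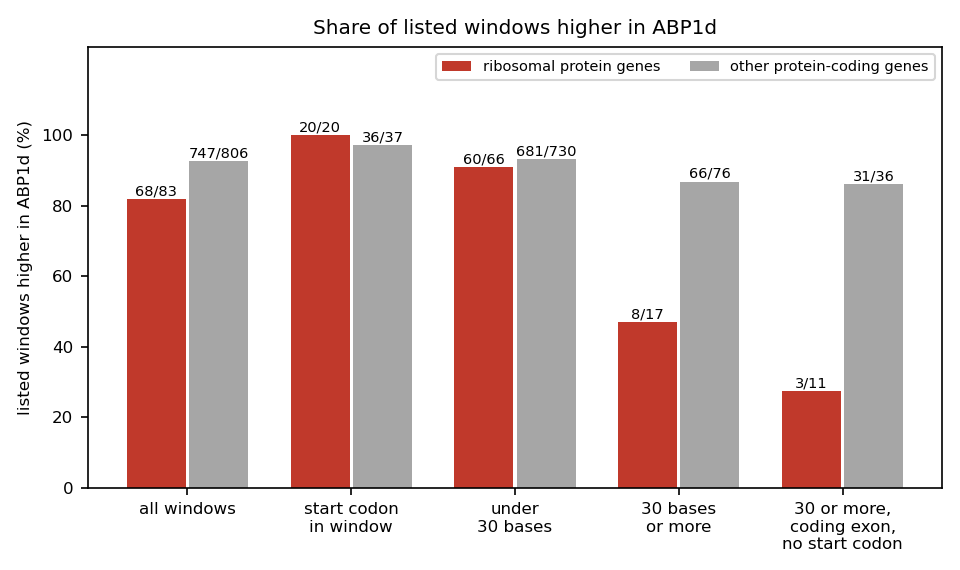
Share of listed windows that were higher in ABP1d (%), for RP genes (red) and other protein-coding genes outside Tf2 elements (grey), over all windows and in classes by start codon and length, with counts above the bars, at the scaling to strain totals. The bars are alike for start codon windows (20 of 20 and 36 of 37). They are apart for long coding exon windows without a start codon (3 of 11, from 10 genes, and 31 of 36, from 14 genes).

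The lower window with most reads lay in rpl8, which encodes eL8 and has no paralog of that protein in the list. It had 163 RPKM in ABP1d and 325 RPKM in WT, from 167 reads in ABP1d and 202 in WT, and was 1.99-fold higher in WT (1.61 to 2.46). At rps1501, a gene for uS19 in the head of the small subunit, a window of 42 bases (chromosome III, 798407 to 798448) had 49 reads in ABP1d against 56 in WT, so WT was higher by 1.88-fold (1.26 to 2.82). The lowest ratios of genes with at least 20 reads were at rps1902 and rps601. The rps1902 gene encodes eS19, a protein needed in budding yeast for maturation of the small subunit rRNA. Its window of 26 bases in a coding exon, over an opposite lncRNA, had 10 reads in ABP1d against 28 in WT, so WT was higher by 4.61-fold (2.17 to 10.6). The rps601 gene encodes eS6, a phosphorylation target of S6 kinases. Its window of 19 bases lay in the 5' UTR (chromosome I, 187564 to 187582), and it had 8 reads in ABP1d against 22 in WT, so WT was higher by 4.53-fold (1.94 to 11.8). It was the single window within 50 bases of an RP gene start that was lower.

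Windows of 2 well covered small subunit genes were higher in ABP1d away from the gene start. At rps13, for uS15, a coding exon window of 44 bases had 112 reads in ABP1d against 45 in WT, for a ratio of 1.51 (1.06 to 2.19). At rps2401, for eS24, a window in the 3' UTR had 156 reads in ABP1d against 54 in WT, a ratio of 1.75 (1.28 to 2.44). Both ratios fell below 1 when 5S windows were centred, at 0.635 and 0.737.

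Opposite directions occurred within single genes. Of 19 RP genes with 2 or more windows, 7 had windows in both directions at the scaling to strain totals. In 6 of these the window nearest the gene start was higher in ABP1d. Among other coding genes the count was 10 of 100, with the first window higher in all 10. These genes were picked because their windows point both ways, so the intervals that follow describe the size of the contrast and are no test of it. The ratio between 2 windows of a gene does not change with the scaling of the libraries, but their directions can. With tRNA windows centred 1.84 came off, and the higher windows of rpl2302 (log2 1.50) and rps802 (1.40, a lower bound) fell below 0. Those of rpl2301 (1.87), rps7 (2.87), rpl1901 (3.19, a lower bound) and rpl401 (4.19) stayed above 0, as did the 5-base window of rpl2402 (2.60). Genes with both directions were not counted under other scalings.

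In rpl1901, for eL19, a protein that reaches across to the small subunit, the start codon window had 45 reads in ABP1d and 0 in WT, at least 9.11-fold higher against a floor of 3 reads. An lncRNA on the opposite strand was annotated over both windows of the gene. The window of 54 bases further inside had 84 reads in ABP1d against 97 in WT, so WT was higher by 1.90-fold (1.40 to 2.58). In rpl2402, for eL24, another protein at the joint of the subunits, 3 windows together had 67 reads in ABP1d against 15 in WT, for a ratio of 2.71 (1.53 to 5.11). The remaining window of 44 bases in that gene had 89 reads in ABP1d against 118 in WT, so WT was higher by 2.18-fold (1.64 to 2.91). The contrast between the directions in rpl2402 was 5.92-fold (3.08 to 11.9). Of the 3 higher windows, that of 5 bases lay 12 bases from the lower window, so a read may be entered in both.

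Both genes for uL14, a protein at the face between the subunits, had this arrangement too, but the 18 bases of the rpl2302 start codon window also occur in rpl2301, so the genes may share reads there. In rpl2302 the start codon window had 28 reads in ABP1d and 6 in WT, and the inner window 46 in ABP1d and 54 in WT, a contrast of 5.48-fold (1.97 to 17.4). In rpl2301 the start codon window had 24 in ABP1d and 4 in WT and the inner window 15 in ABP1d and 22 in WT, a contrast of 8.80-fold (2.28 to 40.6). The same order held in rps802, for eS8, with 13 reads in ABP1d and 0 in WT at the start codon, and 11 in ABP1d and 21 in WT inside. The 23 bases of that inner window occur without a mismatch in rps801, so its reads may come from either copy. In rpl401 the inner window was 2 bases long with 2 reads in ABP1d and 8 in WT. The exception was rps7, for eS7, where the higher window (12 reads in ABP1d and 1 in WT) lay nearer the gene's 3' end than the lower window (17 in ABP1d and 26 in WT).

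**Figure D4:**
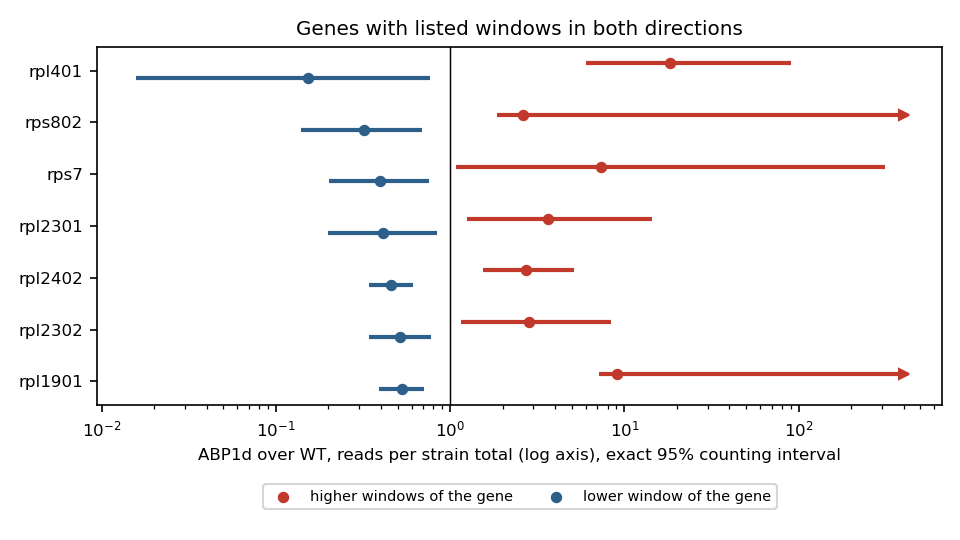
Ratio of ABP1d over WT (log axis) with exact 95% counting intervals for the higher windows (red) and the lower window (blue) of the 7 RP genes with windows in both directions at the scaling to strain totals. The intervals of a gene do not overlap; an arrow marks an interval with no upper limit (rps802 and rpl1901, 0 WT reads), where the point is a lower bound against 3 reads.

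Paralogs mostly went the same way at the scaling to strain totals, but 47 of the 61 RP genes were higher in ABP1d in any case. Pairs of unrelated genes would thus often share a direction too. The pairs are also not independent, since rps4 gave several and some share sequence. The direction counts that follow are therefore no result particular to paralogs. In the symbols, 111 RP genes form 54 groups of paralogs and 20 genes stand alone. No copy had a window in 20 groups, a single copy had in 20, and at least 2 copies had in 14. These 14 groups gave 16 pairs with windows in both members, of which 13 had the same direction and 3 opposite directions. Of those 3 pairs, 2 were opposite with 5S windows centred and 0 with tRNA, snRNA or other coding windows centred. A counting interval for the difference could be given for the 7 pairs with at least 20 reads in each member and reads in WT, and it excluded 1 for 3 of them. No p-value was computed for these pairs.

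The copies of the small subunit protein uS9 differed most clearly at a matching place. The rps1601 window had 137 reads in ABP1d against 44 in WT, for a ratio of 1.89 (1.34 to 2.72). The rps1602 window, which covers the same stretch but for 2 bases, had 15 reads in ABP1d against 26 in WT, for a ratio of 0.350 (0.173 to 0.687). The rps1601 ratio was 5.40 times that of rps1602 (2.48 to 11.9), which does not depend on the scaling, while both copies were lower in ABP1d with 5S windows centred (0.795 for rps1601 and 0.147 for rps1602). The sequences above differ by a single base in this stretch, so reads that span it could be assigned to a copy only by that base. The sources used here do not say how the authors treated reads with several matches or a mismatch. An lncRNA on the opposite strand was annotated over the rps1601 window and no other gene over that of rps1602.

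The copies of eL24 could not be told apart at a matching place. The rpl2401 window had 64.7 RPKM in ABP1d and 161 in WT, from 74 reads in ABP1d and 112 in WT, and was 2.49-fold higher in WT (1.84 to 3.39). The gene ubp6 lay opposite the rpl2401 window. In rpl2402 the matching window had 84.9 RPKM in ABP1d and 185 in WT. The rpl2401 ratio was 0.876 times that of the rpl2402 window (0.574 to 1.34). Over all windows the genes differed by 0.563-fold (0.381 to 0.833), and rpl2402 had 3 further windows that were higher in ABP1d.

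The copies of eL19 went opposite ways in sum at the scaling to strain totals, but both were lower in ABP1d with tRNA windows centred (0.226 for rpl1901 and 0.862 for rpl1902). Over its windows rpl1901 had a ratio of 0.808 (0.616 to 1.06) and rpl1902 a ratio of 3.09 (1.65 to 6.30). At the start codon both were higher in ABP1d, with 45 reads in ABP1d and 0 in WT for rpl1901, and 61 in ABP1d and 12 in WT for rpl1902. The inner stretch of rpl1901 differs from rpl1902 at 4 of 54 bases, and no window was listed there in rpl1902. In the uL14 pair the ratio of rpl2301 was 1.22 times that of rpl2302 (0.640 to 2.33), and the start codon windows, which share sequence, gave 1.29 (0.267 to 6.93).

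Some paralogs may carry the same reads. The windows of rpl1201 (chrIII:691343-691369, minus strand) and rpl1202 (chrIII:627420-627446, minus strand), copies for uL11 at the base of the ribosomal stalk, hold the same 27 bases.
rpl1201 and rpl1202: tgctcgtgacagaaagaaggacaagaa
Both had 29 reads in ABP1d and a single read in WT, so these cannot be treated as independent values. They may be the same reads, entered for both genes and counted in both places in the sums above. Widened to 38 bases, the number of sequencing cycles, these were 2 of the 83 windows with an exact copy elsewhere in the genome. In the pair of rpl701 and rpl702 the directions were opposite at the scaling to strain totals (both lower with tRNA windows centred), but the rpl702 window had 4 bases and 11 reads, and it was named after its values were seen. The annotation calls the rpl701 product an RNase MRP subunit that resembles ribosomal protein L7.

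**Figure D5:**
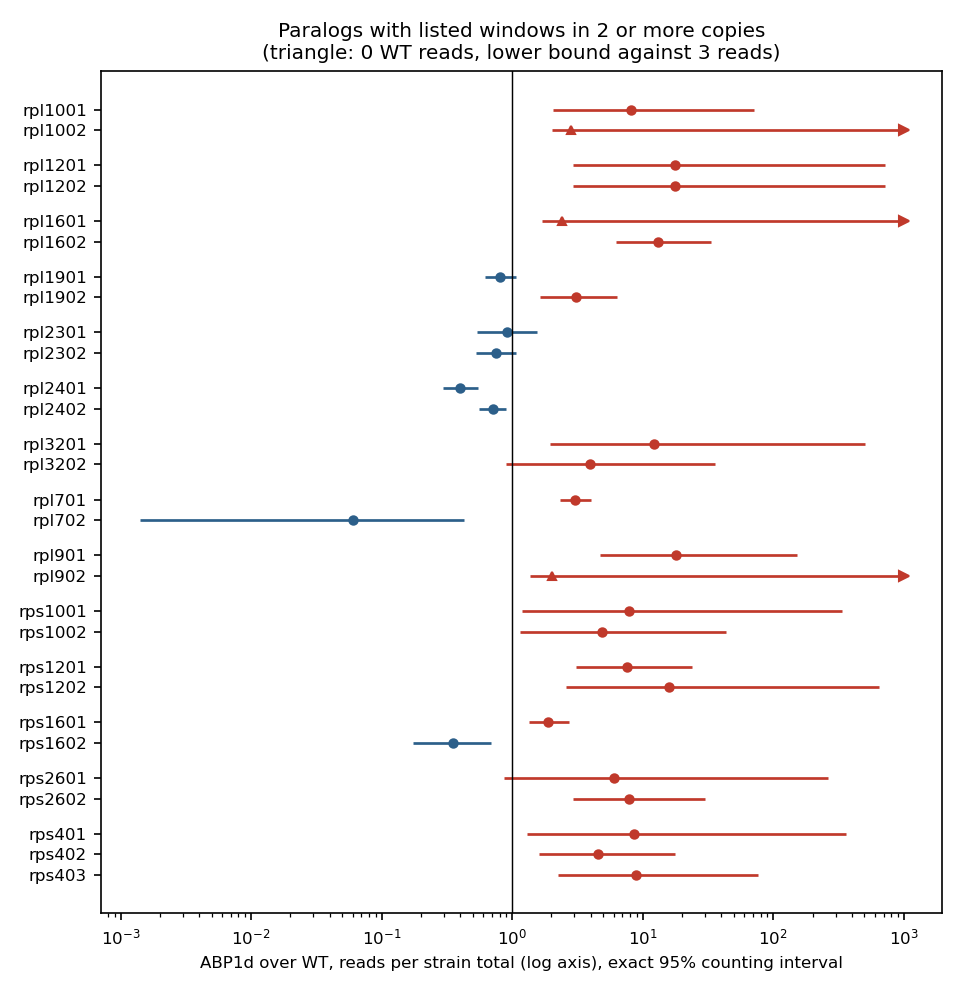
Ratio of ABP1d over WT (log axis) with exact 95% counting intervals for the members of the 14 groups of paralogs with windows in 2 or more copies, red where higher and blue where lower in ABP1d. The copies of rps16, rpl19 and rpl7 fall on opposite sides of 1 at the scaling to strain totals, and on the same side with tRNA windows centred; triangles mark genes with 0 WT reads, given as a lower bound against 3 reads.

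Introns held 9 of the RP windows, 8 of them higher in ABP1d (88.9%), near the 60 of 64 intron windows in other coding genes (93.8%). The window in the rpl701 intron had 323 reads in ABP1d against 66 in WT, for a ratio of 2.97 (2.27 to 3.93), and it overlapped the snoRNA gene snoR39b on the same strand. Its reads therefore cannot be assigned to the RP gene, and without that window rpl701 had 11 reads in ABP1d and 1 in WT. The intron window of rpl4101, a gene for eL41, the smallest ribosomal protein, had 214 reads in ABP1d against 14 in WT, for a ratio of 9.28 (5.41 to 17.3). Of the annotated genes only chl1, on the opposite strand, overlapped it besides rpl4101. The lower intron window was in rps3, over the RNA gene snR48, with 3 reads in ABP1d and 8 in WT, and it was named after its values were seen.

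Windows mostly in a 5' UTR held 287 reads in ABP1d and 46 in WT, and those mostly in a 3' UTR 270 and 88. Intron windows held 624 in ABP1d and 92 in WT, of which 323 and 66 were in the rpl701 window over snoR39b. Some of those in the 5' UTR also held a start codon and were counted with the start codon windows above. Among them was the rpl401 window, with 90 of the 287 reads in ABP1d. In the 5' UTR 11 of 12 windows were higher in ABP1d (91.7%), with a summed ratio of 3.79 (2.77 to 5.29), near the 93.3% and 4.46 of other coding genes. In the 3' UTR 7 of 8 were higher (87.5%), with a summed ratio of 1.86 (1.46 to 2.40), against 91.9% and 2.51 in other coding genes. Another annotated gene overlapped 38 of the 83 windows, and 25 windows overlapped an lncRNA on the opposite strand. Of the 45 windows with no other gene, 35 were higher in ABP1d (77.8%), against 92.0% of such windows in other coding genes.

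Among the remaining named genes, rpl35A01 for eL33 had 39 reads in ABP1d against 1 in WT, for a ratio of 23.7 (4.01 to 959). The rpl35 gene, for uL29 near the exit of the tunnel, had 79 reads in ABP1d against 15 in WT, for a ratio of 3.20 (1.83 to 5.98). Reads in ABP1d and WT were 29 and 1 for rps2502 (eS25), 26 and 1 for rps1202 (eS12), 20 and 1 for rpl3201 (eL32) and 19 and 1 for rpl2702 (eL27), with point ratios from 11.5 to 17.6. The genes for eS4 had ratios of 8.50 (rps401), 4.56 (rps402) and 8.81 (rps403), and rps401 and rps403 share a window of 12 identical bases with 14 and 13 reads in ABP1d and 1 read each in WT. The genes for eS25, eS12, eL32, eL27 and eS4 in these sentences had at most 4 reads in WT. Each interval lay above 1 at the scaling to totals, which is no separate evidence for windows listed by a p-value. The rps401 gene was named after its values were seen.

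Other translation genes were looked at by lists of symbols. Of 12 further cytosolic RP genes outside the rule (stalk proteins, ubiquitin fusions and cpc2), 4 had a window and all 4 were higher in ABP1d. Their median log2 ratio was 3.35. They were rpp201 and rpp202 for stalk proteins (ratios of 14.6 and 12.8) and ubi3 and ubi5 for ubiquitin fused to a small subunit protein (8.10 and 7.90). A window was listed for 5 of 7 elongation factor genes (71.4%) and 6 of 27 initiation factor genes (22.2%), against 13.4% of other coding genes. Of the 23 elongation factor windows, tef101, tef102 and tef103 had 6, 7 and 8, with gene ratios of 7.98, 7.41 and 7.24. Whether these genes share reads was not examined, so they may not be separate cases. The share was at that background for ribosome assembly factors (10 of 77, 13.0%), mitochondrial ribosomal proteins (10 of 78, 12.8%) and regulators (1 of 9, 11.1%, the gene sfp1). Every gene of these lists with a window had more RPM in ABP1d, where 93.4% of other coding genes did, so these counts lie near the background. Median log2 ratios were 2.89 for elongation factors, 1.86 for initiation factors, 1.86 for assembly factors, 2.65 for mitochondrial ribosomal proteins and 2.49 for sfp1, against 2.40 over other coding genes. The interval of the initiation factor gene tif52, named after its values were seen, included 1 (0.832 to 2.90).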

How the data were processed

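The labels describe strand-specific small RNA libraries from total RNA, 2 per strain, sequenced for 38 cycles, and the submitters' processing notes name Bowtie 0.12.5. The sources used here do not give the genome build, read filters, treatment of multiple matches, window caller or test. The authors deposited RPKM values pooled per strain, and a p-value per window, in files without headers; columns were assigned by exact coordinate matches with the strain lists, and no column was left unmapped. As deposited, the p-values of the comparison reach 0.0494.

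Reads were recovered from RPKM and length (whole to within 1e-06) in Python 3.11.15 with scipy 1.17.1. Against 0 reads a floor of 3 over the pooled strain was used. Coordinates were checked on tRNA genes: 166 of 171 carried a window, and 13 after a shift of 1000 bases. Windows overlapped a gene by at least 1 base and held no A/T run of 15 bases. Paralogs share the protein number of the symbol and, where named, the product. Intervals cover counting error only, and the depth of single libraries is unknown.

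Named genes were the 15 with most reads, the 10 lowest and 10 highest ratios at 20 or more reads, and paralogs with 20 or more reads each (34 genes). Sequences followed the 8 windows with most reads, except a 3' UTR window. The rps1601, rps1602, rpl2402 and matching rpl1901 and rpl1902 stretches were added after values were seen. Members and lists were chosen with earlier results of these data known. Totals and intervals were tested on simulated data.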

Additional observations from a re-analysis of the deposited data

How the results depend on the processing

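Directions depended mainly on scaling, which was centred in turn on listed windows of other classes; those medians are not known to be stable. Centring took 1.25 (5S), 1.84 (tRNA), 1.96 (snRNA) and 2.09 (other coding windows) off each log2 ratio. The summed RP ratio became 0.734, 0.488, 0.449 and 0.411 in that order, the large subunit ratio 0.745, 0.495, 0.456 and 0.417, and the small subunit ratio 0.709, 0.472, 0.434 and 0.397. Windows lower in ABP1d numbered 26, 27 and 31 with tRNA, snRNA and other coding windows centred. Ratios below 1 in the same order were found for rps13 (0.635, 0.422, 0.389 and 0.356), rps1601 (0.795, 0.528, 0.487 and 0.445) and rps2401 (0.737, 0.490, 0.451 and 0.413), and from tRNA on for rpl1902 (0.862, 0.794 and 0.726), rpl35 (0.894, 0.823 and 0.752) and rpl701 (0.846, 0.779 and 0.712). Start codon windows stayed higher in 20, 17, 16 and 14 of 20 cases, and the long coding windows were lower in 11 of 11 under each. A total without rRNA windows reversed none of these. Opposite paralog pairs numbered 3, 3, 3 and 4 in that order, but of the 3 at strain totals 2, 0, 0 and 0 were among them, and 1, 3, 3 and 3 of the pairs rested on a lower bound. With other annotated genes left out, fewer windows remained: 35 higher, 8 at start codons, 5 long lower ones and 1 opposite paralog pair. With at least 20 reads 33 windows were higher, and 44 with window sequences unique in the genome, which drops short windows by construction. At a deposited p under 0.001, 22.9% of RP genes and 6.88% of other coding genes had a window. Filters on A/T runs, whole windows inside genes, a floor of 1 read and, chosen after seeing the data, uniqueness at 38 bases and a single window of 6 close pairs changed no direction of the summed ratios. No paired analysis was possible because the deposited values are pooled per strain; leaving out a replicate was not run for the same reason.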
